A study of Oryza sativa with 4 samples.

Results

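The enzymes of the Calvin cycle and of photorespiration were examined as a group in the leaf transcriptome of rice plants that overexpress the transcription factor OsNAC14. Members were chosen by the words of their deposited gene descriptions: phosphoribulokinase, fructose-1,6-bisphosphatase and fructose-bisphosphate aldolase, sedoheptulose bisphosphatase, glyceraldehyde-3-phosphate dehydrogenase (GAPDH), phosphoglycerate kinase, transketolase, Rubisco or ribulose, glycolate oxidase, the glycine cleavage system and hydroxymethyltransferase. The choice used no measured value itself but was made with earlier results of these data known. It left out 5 genes with 7 transcripts that also match these words. It gave 88 transcripts of 62 genes among 37972 transcripts of 31414 genes in all.

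RNA came from leaves of 2 non-transgenic (NT) samples and 2 OsNAC14OX samples. In OsNAC14OX plants the whole-body promoter PGD1 drives OsNAC14, and the paper's account of the experiment names the plants as line 11 in the T4 generation, so the overexpression group is a single transgenic event. None of the plants was under drought. The labels give the cultivar as Nipponbre and the age as 20 days, whereas the extraction protocol and the paper describe 2-week-old plants. The paper names Nakdong as the cultivar of NT and also as the cultivar that was transformed to make OsNAC14OX. The paper calls the duplicates biological samples but does not state how many plants went into a library, and p-values measure the spread between these 4 libraries. The deposited columns of NT carry the cultivar name Nakdong and what reads as a year, and those of OsNAC14OX carry neither. The meaning of the year is not given, and a difference in origin between the groups cannot be told apart from the genotype. The values are FPKM, which are scaled by transcript length and by the mapped reads of the library, so the read depth behind each library is unknown.

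In the Calvin cycle, Rubisco fixes carbon dioxide onto ribulose bisphosphate, phosphoglycerate kinase and GAPDH reduce the product to triose phosphate, and aldolases, bisphosphatases, transketolase, an epimerase and phosphoribulokinase rebuild the acceptor. Rubisco also accepts oxygen, and photorespiration recovers the carbon of that side reaction through glycolate oxidase in the peroxisome and through glycine decarboxylase and serine hydroxymethyltransferase in the mitochondrion. Several of these activities exist a further time outside the chloroplast, where they serve glycolysis, sucrose synthesis or one-carbon metabolism, and the choice by description takes in both kinds.

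The overexpressed gene was checked first. OsNAC14 (Os01t0675800-01, chromosome 1, 27780948 to 27782265) was at 3.16 and 3.70 FPKM in NT and at 16.4 and 16.3 FPKM in OsNAC14OX, so both OsNAC14OX libraries lay above both NT libraries. Its log2 fold change was 1.99 (SE 0.11, adjusted p = 0.0204 by limma with Benjamini-Hochberg adjustment, n = 2 per group). Leaving out a library moved that adjusted p to 0.124 (NT replicate 1), 0.303 (NT replicate 2) and 0.0605 (OsNAC14OX replicate 1). Of the tissue lists, chosen by words in the descriptions, light-harvesting transcripts of the leaf had the largest sums. Their FPKM summed to 11059 and 10992 in NT and to 10767 and 13680 in OsNAC14OX, with 0 of 21 tested transcripts called. Seed storage transcripts summed to between 243 and 292 FPKM. Transcripts with pollen or anther in their description summed to between 3366 and 4169 FPKM, and a list for dividing cells to between 1295 and 1518 FPKM. Such words alone thus do not single out a tissue. A list of 6 root transcripts summed to 333 and 363 FPKM in NT and to 81.6 and 143 FPKM in OsNAC14OX, most of it from 2 nicotianamine synthase genes, and 0 of its 5 tested transcripts were called. The root-specific RCc2 protein transcript Os10t0551800-00 on that list was at 28.9 and 29.3 FPKM in NT and at 14.3 and 37.0 FPKM in OsNAC14OX. A root-specific metal transporter on it, Os02t0131800-01, was lower, at 20.3 and 20.2 FPKM in NT and at 8.31 and 12.7 FPKM in OsNAC14OX. Another nicotianamine synthase, Os07t0689600-01, was higher, at 5.51 and 5.42 FPKM in NT and at 8.05 and 10.5 FPKM in OsNAC14OX. The part of these lists in the members' values was not tested.

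No member was called as different between OsNAC14OX and NT. Calls were made at adjusted p < 0.05 combined with a change of 2-fold or more. Of the 88 members, 76 transcripts of 57 genes reached 1 FPKM in 2 or more libraries and were tested among 30251 transcripts, and 0 of the 76 passed, where 0.555% of all tested transcripts did (168 transcripts). The smallest adjusted p of a member was 0.0745 (limma, Benjamini-Hochberg), for Rubisco activase. At an unadjusted p under 0.05, 13 members of 12 genes were higher in OsNAC14OX, which is 17.1% of the members tested beside 4.09% of all transcripts, and 3 members were lower, which is 3.95% beside 5.31%. On the normalized scale, both OsNAC14OX libraries lay above both NT libraries for 29 members (38.2%, beside 20.4% of all transcripts) and below both for 12 members (15.8%, beside 20.6%). The median log2 fold change was 0.051 over members and 0.0032 over all transcripts, and single members ran from -2.80 to 1.11.

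These counts at an unadjusted p depended on scaling and on single libraries of both groups. Without OsNAC14OX replicate 2 the share of members was close to that of all transcripts, as given at the end. On log2 FPKM without the authors' quantile normalization, 7 members were higher and 4 lower, beside 3.41% and 6.38% of all transcripts. Without NT replicate 1, 9 members (11.8%, beside 6.52% of all transcripts) had an unadjusted p under 0.05 in limma, and without NT replicate 2 there were 6 (7.89%, beside 4.30%), where all 4 libraries gave 16 (21.1%, beside 9.40%). The share over all transcripts thus also fell when an NT library was left out. When FPKM were summed over all transcripts of a gene, 3 of 57 member genes were higher and 2 lower (5.26% and 3.51%), beside 3.46% and 6.85% of all genes. Gene sums, here and below, were fitted as log2(FPKM + 1) without quantile normalization. They thus differ from the transcript values in scaling as well as in summing. All 16 members kept their sign when any library was left out. That was fixed in advance, because for each of the 16 both OsNAC14OX libraries lay on the same side of both NT libraries.

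**Figure D1:**
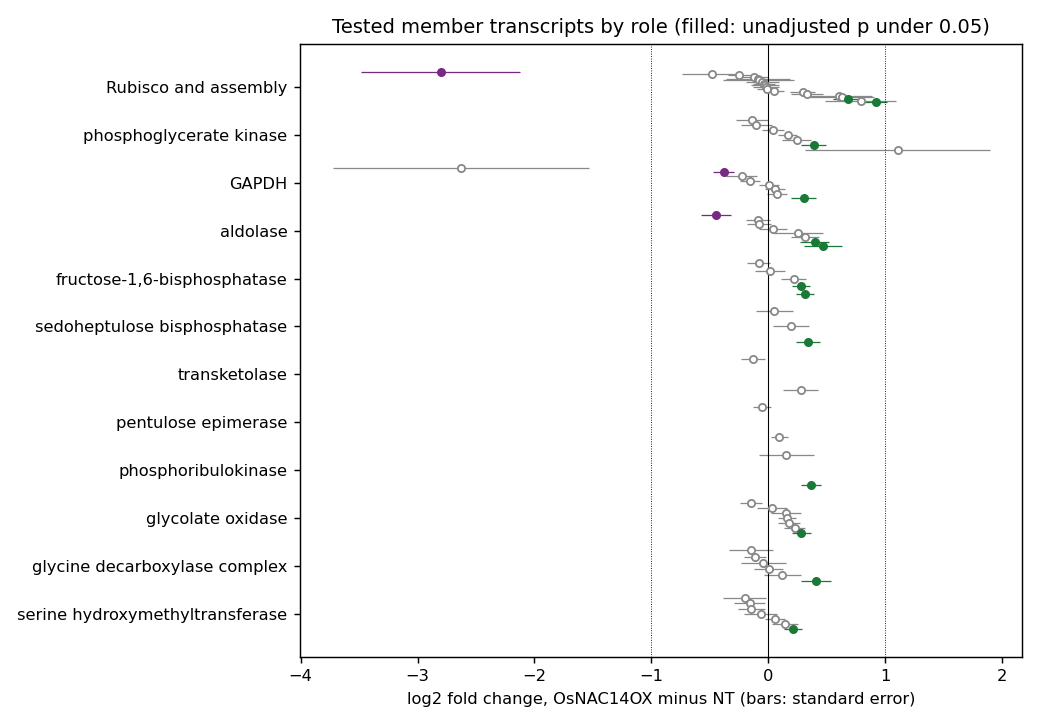
Log2 fold change (OsNAC14OX minus NT, horizontal axis) with its standard error for the 76 tested members, grouped by role (vertical axis). Filled points have an unadjusted p under 0.05, of which 13 lie right of 0 and 3 lie left of it, and dotted lines mark a fold of 2.

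In terms of level, the members are among the abundant transcripts of the leaf. Of the 88 members, 33 were in the top 5% of all transcripts by mean FPKM, and 28 transcripts of 21 genes had a mean of at least 100 FPKM. Among those 28, 10 were higher and 1 was lower at an unadjusted p under 0.05, where 6.20% and 7.68% of the 1146 transcripts of that level were. Without the authors' quantile normalization, 4 of the 28 were higher and 1 was lower, beside 2.97% and 10.6% of the transcripts of that level. The FPKM of all members summed to 8206 and 8219 in NT and to 8434 and 9266 in OsNAC14OX. The OsNAC14OX libraries were higher than both NT libraries, and OsNAC14OX replicate 2 stood highest, as it did for the light-harvesting sum. As a share of each library's total FPKM the members made up 1.09% and 1.07% in NT and 1.15% and 1.24% in OsNAC14OX.

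**Figure D2:**
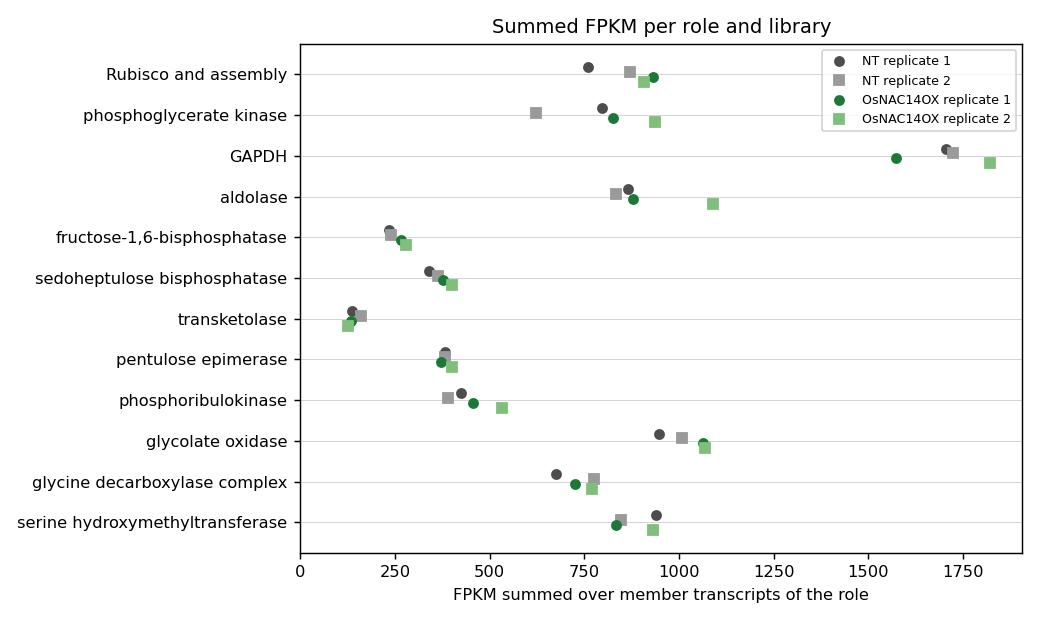
FPKM summed over the members of each role (horizontal axis) for each of the 4 libraries, by role (vertical axis). In 7 of the 12 roles, led in sum by glycolate oxidase and aldolase, both OsNAC14OX libraries lay above both NT libraries. Transketolase lay below both, at 133 and 127 in OsNAC14OX and 137 and 160 in NT. GAPDH ran from 1573 to 1822 in OsNAC14OX around NT sums of 1706 and 1725. The sums are without quantile normalization, and no background share was computed for sums. For single transcripts on the normalized scale, 20.4% of all lay above both NT libraries.

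Rubisco activase, the chaperone that frees the catalytic sites of Rubisco from inhibitory sugar phosphates, had the smallest p of the group. Its main transcript, Os11t0707000-02 (chromosome 11, 28932985 to 28936031), was at 291 and 260 FPKM in NT and at 485 and 509 FPKM in OsNAC14OX. The replicates of each group were close and the groups did not overlap. The log2 fold change was 0.93 (SE 0.094), a fold of 1.90, with an unadjusted p of 0.00055 and an adjusted p of 0.0745 in limma with Benjamini-Hochberg adjustment. Under the other settings for this transcript the log2 fold change ran from 0.84 to 1.01 and the adjusted p (limma) from 0.0534 to 0.478, so the call was not reached under any of them. A further transcript of the gene, Os11t0707000-01, was at 2.67 and 3.36 FPKM in NT and at 5.50 and 5.13 FPKM in OsNAC14OX, with a log2 fold change of 0.68 (SE 0.13). It made up a small part of the gene's output but pointed the same way. Summed over the gene's 4 transcripts, Os11g0707000 was at 300 and 264 FPKM in NT and at 503 and 521 FPKM in OsNAC14OX (log2 fold change 0.86, adjusted p = 0.0884 in limma over genes). The other gene described as an activase, Os04t0658300-01, was expressed at a far lower level, with 12.1 and 12.5 FPKM in NT and 16.1 and 14.0 FPKM in OsNAC14OX, and its log2 fold change was 0.30 (SE 0.11, unadjusted p = 0.0512 in limma).

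Transcripts described as the Rubisco large subunit lie in the nuclear genome here, although the working gene for that subunit is in the plastid. Os01t0791033-00 was at 5.50 and 5.06 FPKM in NT and at 13.2 and 7.06 FPKM in OsNAC14OX. Os10t0356000-00 was at 5.19 and 4.25 FPKM in NT and at 9.91 and 5.89 FPKM in OsNAC14OX. Os12t0207600-00 was at 3.81 and 2.90 FPKM in NT and at 7.20 and 4.15 FPKM in OsNAC14OX. In all 3 the OsNAC14OX libraries lay above the NT libraries and OsNAC14OX replicate 1 was far above replicate 2, with log2 fold changes of 0.79 (SE 0.30), 0.63 (SE 0.27) and 0.60 (SE 0.29) and no unadjusted p under 0.05 in limma. Copies of this kind can be near-identical to the plastid gene and to each other, so how reads were divided among them is uncertain.

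The chaperonin subunits that fold the Rubisco large subunit, described as Rubisco subunit binding proteins, mostly had log2 fold changes near 0. The beta subunit Os04t0443900-01 was at 75.7 and 79.0 FPKM in NT and at 77.6 and 71.2 FPKM in OsNAC14OX, with overlapping groups and a log2 fold change of -0.010 (SE 0.081). The beta subunit transcript Os06t0114000-04 was at 88.8 and 89.0 FPKM in NT and at 78.2 and 67.1 FPKM in OsNAC14OX, so its groups did not overlap, and its log2 fold change was -0.25 (SE 0.099, unadjusted p = 0.0661 in limma). The alpha subunit Os03t0859600-01 differed by -0.036 (SE 0.098) in log2 fold change and its neighbour on chromosome 3, Os03t0859700-00, by 0.050.

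The largest negative value in the whole group belonged to the alpha subunit gene Os12g0277500 and came with a library that stood apart. Its transcript Os12t0277500-04 was at 15.3 and 46.9 FPKM in NT and at 4.85 and 1.61 FPKM in OsNAC14OX, a log2 fold change of -2.80 (SE 0.68, unadjusted p = 0.0142, adjusted p = 0.362 in limma). Both OsNAC14OX libraries lay below both NT libraries, but NT replicate 2 was also far above NT replicate 1. The transcript Os12t0277500-03 of the same gene was at 93.5 FPKM in NT replicate 2 and near 0 in the other 3 libraries, and it was not tested. The main transcript, Os12t0277500-01, was at 67.7 and 112 FPKM in NT and at 63.3 and 56.4 FPKM in OsNAC14OX, again with NT replicate 2 apart. An annotated hypothetical gene, Os12g0277650, lies within the span of this gene, and its FPKM ran the opposite way, with 111 in NT replicate 1, 5.58 in NT replicate 2, and 94.2 and 85.9 in OsNAC14OX. Added together, the 2 overlapping genes came to 194 and 258 FPKM in NT and to 162 and 144 FPKM in OsNAC14OX. Without NT replicate 2 the log2 fold change of Os12t0277500-04 was -2.04.

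The same exchange was visible at the cytosolic phosphoglycerate kinase gene, which gave the largest positive value of the group. Os02t0169300-01 (chromosome 2, 3727551 to 3731217) was at 174 FPKM in NT replicate 1, at 35.4 FPKM in NT replicate 2, and at 155 and 176 FPKM in OsNAC14OX. NT replicate 2 alone was low, and the log2 fold change of 1.11 (SE 0.79, adjusted p = 0.739 in limma) became -0.0097 without it. The hypothetical gene Os02g0169151, which lies inside the same span, was at 9.55 FPKM in NT replicate 1, at 112 FPKM in NT replicate 2, and at 7.30 and 10.1 FPKM in OsNAC14OX. The sum of both genes was 183 and 147 FPKM in NT and 163 and 186 FPKM in OsNAC14OX, with overlapping groups. A short transcript of a cytosolic GAPDH gene, Os02t0171100-02, had the largest negative value of its role, at 3.19 FPKM in NT replicate 1, 34.7 FPKM in NT replicate 2 and 1.36 and 0.613 FPKM in OsNAC14OX. Its log2 fold change was -2.63 (SE 1.10), and -1.10 without NT replicate 2. The overlapping gene Os02g0171301 was at 12.8 FPKM in NT replicate 2 and between 15.5 and 21.1 FPKM in the others. Of the 62 member genes, 26 overlap another annotated gene, and the files do not state whether the FPKM took strand into account.

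**Figure D3:**
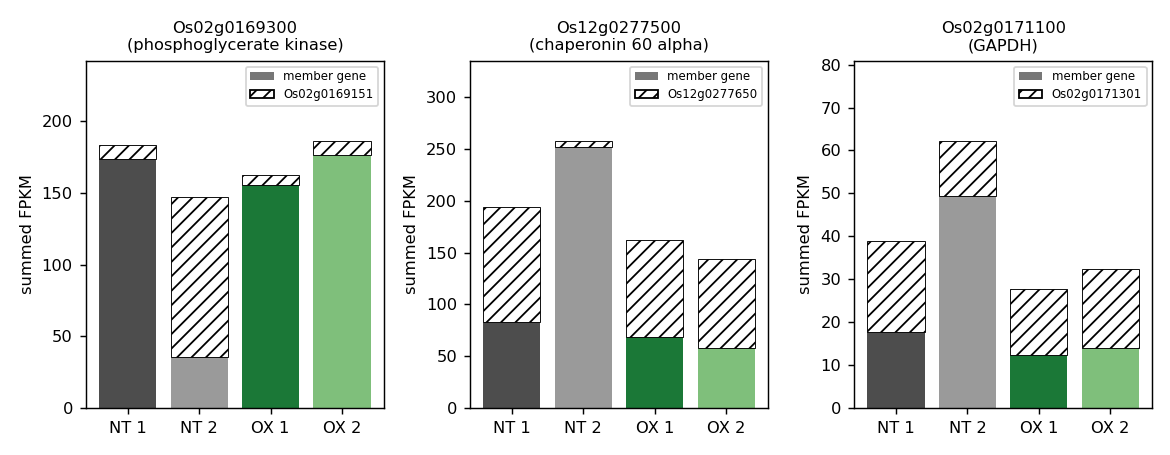
Summed FPKM (vertical axis) of 3 member genes (solid bars) and of the annotated gene that overlaps each (hatched bars, stacked on top), for NT replicates 1 and 2 and OsNAC14OX (OX) replicates 1 and 2. In NT replicate 2 the phosphoglycerate kinase gene was at 35.4 and its overlapping gene at 112, and the chaperonin gene was at 252 and its overlapping gene at 5.58, the reverse of the other 3 libraries.

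In the reducing steps of the cycle, the most abundant phosphoglycerate kinase transcript and the GAPDH transcript described with the photosynthetic activity were at a higher level in both OsNAC14OX libraries. Phosphoglycerate kinase Os05t0496200-02, which phosphorylates the Rubisco product, was at 327 and 286 FPKM in NT and at 366 and 420 FPKM in OsNAC14OX. The groups did not overlap, and the log2 fold change was 0.39 (SE 0.11, unadjusted p = 0.0218, adjusted p = 0.412 in limma). The gene's other 2 transcripts, Os05t0496200-01 and Os05t0496200-03, had log2 fold changes of 0.24 (SE 0.12) and 0.17 (SE 0.079). The GAPDH transcript Os03t0129300-01, whose description carries the number of the photosynthetic, NADP-dependent enzyme, was at 395 and 390 FPKM in NT and at 424 and 517 FPKM in OsNAC14OX, with a log2 fold change of 0.30 (SE 0.11, unadjusted p = 0.0448 in limma). OsNAC14OX replicate 2 carried most of that difference, and a short transcript of the same gene was at 20.7 FPKM in NT replicate 2 and near 0 in the other 3.

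The other GAPDH genes lay level with NT or below it. The cytosolic Os04t0486600-01, an enzyme of glycolysis, was at 479 and 496 FPKM in NT and at 461 and 537 FPKM in OsNAC14OX, with overlapping groups and a log2 fold change of 0.059 (SE 0.089). The gene Os08g0126300, described as a GAPDH fragment, had its main transcript Os08t0126300-01 at 426 and 393 FPKM in NT and at 375 and 422 FPKM in OsNAC14OX (log2 fold change 0.0033). Its transcript Os08t0126300-02 was at 188 and 199 FPKM in NT and at 132 and 150 FPKM in OsNAC14OX, so the groups did not overlap, and the log2 fold change was -0.38 (SE 0.091, unadjusted p = 0.0135, adjusted p = 0.359 in limma). Summed over its 3 transcripts, the gene was at 986 and 952 FPKM in NT and at 724 and 815 FPKM in OsNAC14OX (log2 fold change -0.33, unadjusted p = 0.0318 in limma over genes). That sum takes in a short transcript that is no member, Os08t0126300-03, at 372 and 359 FPKM in NT and at 217 and 244 FPKM in OsNAC14OX. Its log2 fold change was -0.58 (SE 0.080, adjusted p = 0.141 in limma). Of the remaining phosphoglycerate kinase members, Os03t0102400-01, related to a kinase of another phosphoglycerate, was at 20.7 and 20.0 FPKM in NT and 20.0 and 21.1 FPKM in OsNAC14OX, and Os10t0442100-00 differed by -0.14 (SE 0.14).

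In the steps that rebuild the carbon dioxide acceptor, the leading transcript of most enzymes lay higher in both OsNAC14OX libraries. The chloroplast aldolase Os11t0171300-01, which joins triose phosphates, was at 464 and 443 FPKM in NT and at 492 and 634 FPKM in OsNAC14OX, with a log2 fold change of 0.40 (SE 0.12, unadjusted p = 0.0317 in limma). Without quantile normalization that value was 0.30, with an adjusted p of 0.624 in limma. The aldolase Os06t0608700-02, described as cytoplasmic, was at 97.4 and 102 FPKM in NT and at 116 and 156 FPKM in OsNAC14OX (log2 fold change 0.47, SE 0.16, unadjusted p = 0.0451 in limma). In both aldolase transcripts OsNAC14OX replicate 1 was nearer to NT than replicate 2 was. The other transcript of the cytoplasmic gene, Os06t0608700-01, was at 32.4 and 32.3 FPKM in NT and at 44.3 and 36.2 FPKM in OsNAC14OX. Summed per gene, Os06g0608700 was at 130 and 134 FPKM in NT and at 161 and 192 FPKM in OsNAC14OX. That sum had a log2 fold change of 0.41 (unadjusted p = 0.0229, adjusted p = 0.385 in limma over genes). The other cytoplasmic aldolases went without that direction: Os05t0402700-01 was at 177 and 165 FPKM in NT and at 143 and 166 FPKM in OsNAC14OX, and the weakly expressed Os08t0120600-01 was at 7.14 and 8.16 FPKM in NT and at 4.84 and 5.62 FPKM in OsNAC14OX. The last had a log2 fold change of -0.44 (SE 0.13, unadjusted p = 0.0240, adjusted p = 0.426 in limma).

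The bisphosphatases, which commit sugar phosphates to regeneration, differed by small amounts. The chloroplast fructose-1,6-bisphosphatase Os03t0267300-01 was at 161 and 165 FPKM in NT and at 182 and 198 FPKM in OsNAC14OX, a log2 fold change of 0.28 (SE 0.077, unadjusted p = 0.0221, adjusted p = 0.414 in limma). Os01t0866400-01, whose description names no compartment, was at 47.6 and 48.8 FPKM in NT and at 59.96 and 58.0 FPKM in OsNAC14OX, with a log2 fold change of 0.32 (SE 0.077, unadjusted p = 0.0141, adjusted p = 0.362 in limma). Sedoheptulose bisphosphatase, matched by the gene Os04g0234600, had its main transcript Os04t0234600-02 at 174 and 155 FPKM in NT and at 194 and 201 FPKM in OsNAC14OX. That transcript had a log2 fold change of 0.34 (SE 0.10, unadjusted p = 0.0264 in limma), whereas the sum over the gene's 3 transcripts gave 0.14. Its other transcripts were less even between replicates: Os04t0234600-01 was at 127 and 171 FPKM in NT and at 143 and 149 FPKM in OsNAC14OX, and Os04t0234600-03 at 38.4 and 39.7 FPKM in NT and 39.4 and 49.8 FPKM in OsNAC14OX. Os06t0664200-01, described with an inositol monophosphatase domain and so possibly not an enzyme of the cycle, was at 20.2 and 19.5 FPKM in NT and at 19.5 and 17.4 FPKM in OsNAC14OX.

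Phosphoribulokinase, which makes the Rubisco substrate and is dedicated to the Calvin cycle, was matched by Os02g0698000. Its main transcript Os02t0698000-01 (chromosome 2, 28701864 to 28704269) was at 315 and 286 FPKM in NT and at 364 and 388 FPKM in OsNAC14OX. The groups did not overlap, and the log2 fold change was 0.37 (SE 0.085, unadjusted p = 0.0119, adjusted p = 0.346 in limma). The transcript Os02t0698000-02 was at 111 and 105 FPKM in NT and at 92.3 and 144 FPKM in OsNAC14OX, the 2 OsNAC14OX libraries lying on either side of NT. Over the whole gene the log2 fold change was 0.27 (SE 0.12).

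Transketolase and the epimerase, which shuffle and interconvert the sugar phosphates between these steps, had small log2 fold changes of either sign. The chloroplast transketolase transcript Os06t0133800-02 was at 132 and 156 FPKM in NT and at 128 and 121 FPKM in OsNAC14OX (log2 fold change -0.13, SE 0.11). The gene's more abundant transcript, Os06t0133800-01, is described only as a transferase and so was no member; it was at 306 and 266 FPKM in NT and at 301 and 344 FPKM in OsNAC14OX, and the gene as a whole differed by 0.055 (SE 0.086). Os04t0266900-01, with a transketolase-like domain, was at 5.20 and 4.47 FPKM in NT and at 5.47 and 6.39 FPKM in OsNAC14OX. The chloroplast epimerase Os03t0169100-01 was at 328 and 328 FPKM in NT and at 320 and 350 FPKM in OsNAC14OX, with a log2 fold change of 0.095 (SE 0.073). The cytoplasmic epimerase Os09t0505700-02 was at 55.3 and 54.5 FPKM in NT and at 51.6 and 51.8 FPKM in OsNAC14OX, with a log2 fold change of -0.056.

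**Figure D4:**
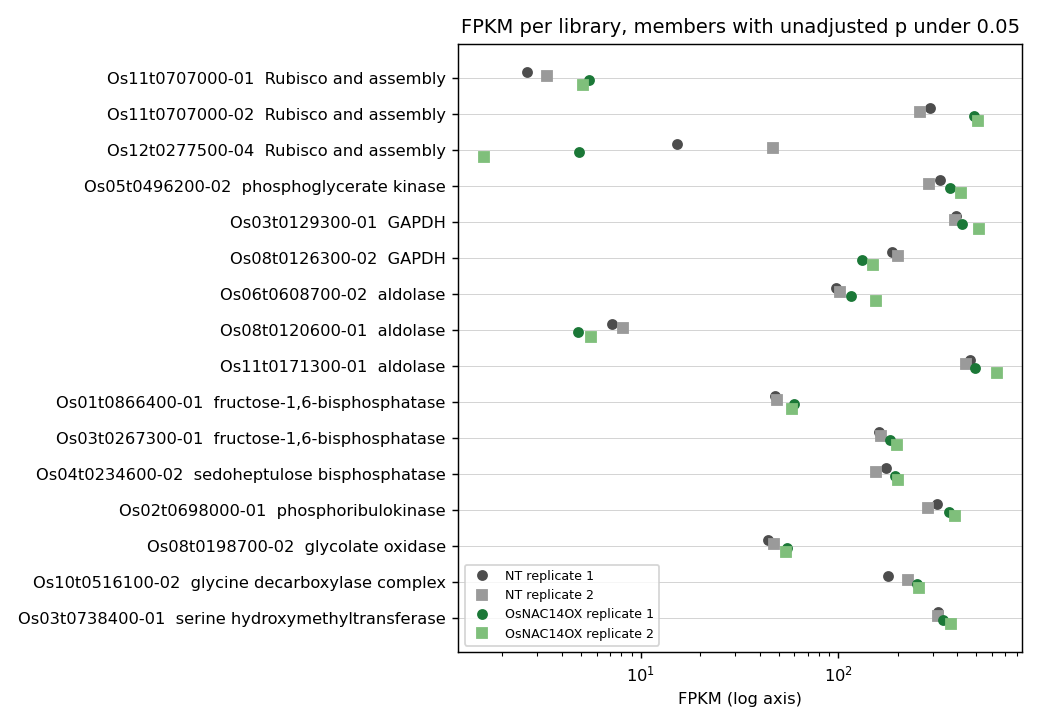
FPKM (horizontal log axis) of the 16 members with an unadjusted p under 0.05 in each of the 4 libraries, by transcript and role (vertical axis). Rubisco activase Os11t0707000-02 has NT at 291 and 260 against 485 and 509 in OsNAC14OX, and the other abundant transcripts have narrower gaps.

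Of the photorespiratory enzymes, glycolate oxidase, which oxidizes glycolate in the peroxisome, had mostly small positive values. The leading transcript Os03t0786100-02 was at 411 and 442 FPKM in NT and at 474 and 480 FPKM in OsNAC14OX, with a log2 fold change of 0.23 (SE 0.089, unadjusted p = 0.0614 in limma). Os07t0152900-03 was at 309 and 333 FPKM in NT and at 341 and 346 FPKM in OsNAC14OX, and Os07t0616500-01 was at 55.8 and 62.7 FPKM in NT and at 63.9 and 66.0 FPKM in OsNAC14OX. In each of these the OsNAC14OX libraries lay above NT by a small margin, with log2 fold changes of 0.16 (SE 0.076) and 0.18 (SE 0.094). These values were smaller under other settings: Os07t0152900-03 was at 0.097 without quantile normalization and its gene sum at 0.082, and the gene sum of Os03t0786100-02 was at 0.14. Os08t0198700-02 was at 43.9 and 47.1 FPKM in NT and at 55.1 and 54.3 FPKM in OsNAC14OX, and with a log2 fold change of 0.28 (SE 0.083, unadjusted p = 0.0260, adjusted p = 0.437 in limma) it was the member of this role with an unadjusted p under 0.05. The minor transcript Os07t0152900-01 lay lower in OsNAC14OX, at 23.5 and 21.6 FPKM in NT and 20.4 and 19.5 FPKM in OsNAC14OX. Altogether 6 of 7 tested glycolate oxidase transcripts had a positive log2 fold change, with a median of 0.16.

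The glycine decarboxylase complex, which splits photorespiratory glycine, was represented by its H, T and L proteins. The mitochondrial H protein gene Os10g0516100 had a transcript that was higher and a transcript that was lower. Os10t0516100-02 was at 179 and 226 FPKM in NT and at 250 and 255 FPKM in OsNAC14OX, with a log2 fold change of 0.41 (SE 0.13, unadjusted p = 0.0333, adjusted p = 0.468 in limma). Os10t0516100-01 was at 182 and 168 FPKM in NT and at 159 and 150 FPKM in OsNAC14OX, and the whole gene was at 361 and 394 FPKM in NT and 409 and 405 FPKM in OsNAC14OX. The gene sums thus differed by 0.11 (SE 0.086) in log2 fold change, less than the main transcript did. The other H protein, Os02t0170100-02, was at 88.8 and 91.3 FPKM in NT and at 66.8 and 92.3 FPKM in OsNAC14OX, with OsNAC14OX replicate 1 low. The T protein transcript Os04t0623800-01 was at 199 and 264 FPKM in NT and at 219 and 251 FPKM in OsNAC14OX, a difference within the spread of NT. The gene's other transcript, Os04t0623800-02, was low in NT replicate 2, at 66.2 FPKM beside 134, 121 and 126 FPKM in the others, and the gene sums were 334 and 330 FPKM in NT and 340 and 378 FPKM in OsNAC14OX. The L protein Os03t0662000-01 was expressed at under 2 FPKM in each library.

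Serine hydroxymethyltransferase, which joins glycine-derived carbon into serine, showed no shared direction. Os03t0738400-01, described as cytosolic, was at 318 and 319 FPKM in NT and at 338 and 373 FPKM in OsNAC14OX, with a log2 fold change of 0.21 (SE 0.076, unadjusted p = 0.0460, adjusted p = 0.516 in limma). The gene's transcript Os03t0738400-03 was at 175 and 142 FPKM in NT and at 136 and 153 FPKM in OsNAC14OX (log2 fold change -0.063), and the whole gene Os03g0738400 differed by 0.067 (unadjusted p = 0.527 in limma over genes). Os11t0455800-01 was at 176 and 175 FPKM in NT and at 164 and 186 FPKM in OsNAC14OX. Os11t0455800-02 was at 204 and 152 FPKM in NT and at 133 and 158 FPKM in OsNAC14OX. For both transcripts of Os11g0455800 the groups overlapped, with log2 fold changes of 0.058 and -0.20 (SE 0.086 and 0.19). Os12t0409000-01 was at 32.02 and 28.8 FPKM in NT and at 25.9 and 28.2 FPKM in OsNAC14OX, a log2 fold change of -0.14. This gene, Os12g0207600 and Os12g0277500 lie on chromosome 12 between 5 and 17 Mb.

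There were 12 members under the filter, of which 7 belong to genes with another tested transcript. The 5 genes with no tested transcript were a GAPDH gene (Os06g0666600), a phosphoglycerate kinase gene (Os01g0800266), a Rubisco large subunit copy (Os05g0427800) and 2 genes grouped by the word hydroxymethyltransferase, of which Os01g0225500 belongs to pantothenate rather than serine metabolism.

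Replicates of the members agreed about as well as those of all transcripts. The median absolute log2 difference between replicates was 0.12 in NT and 0.14 in OsNAC14OX over the members, beside 0.12 and 0.17 over all transcripts tested. NT replicates differed by at least 2-fold for 3 members, Os12t0277500-04, Os02t0169300-01 and Os02t0171100-02. OsNAC14OX replicates did so for 1 member, Os12t0277500-04. OsNAC14OX replicate 2 was above replicate 1 for 45 of 76 members and for 18651 of 30251 transcripts in all.

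The quantile normalization moved abundant members upward. The median of the normalized minus the non-normalized log2 fold change was 0.029 over all tested transcripts, 0.033 over the 76 members and 0.065 over the 28 members with at least 100 FPKM. It was 0.065 over all 1146 transcripts of that level. Over the 28 abundant members the median log2 fold change itself was 0.16 with normalization and 0.094 without it. For all transcripts of that level it was -0.010 and -0.076. Of the 16 members with an unadjusted p under 0.05, 10 also had it without normalization in the same direction. Rubisco activase Os11t0707000-02 had a log2 fold change of 0.85 without normalization.

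**Figure D5:**
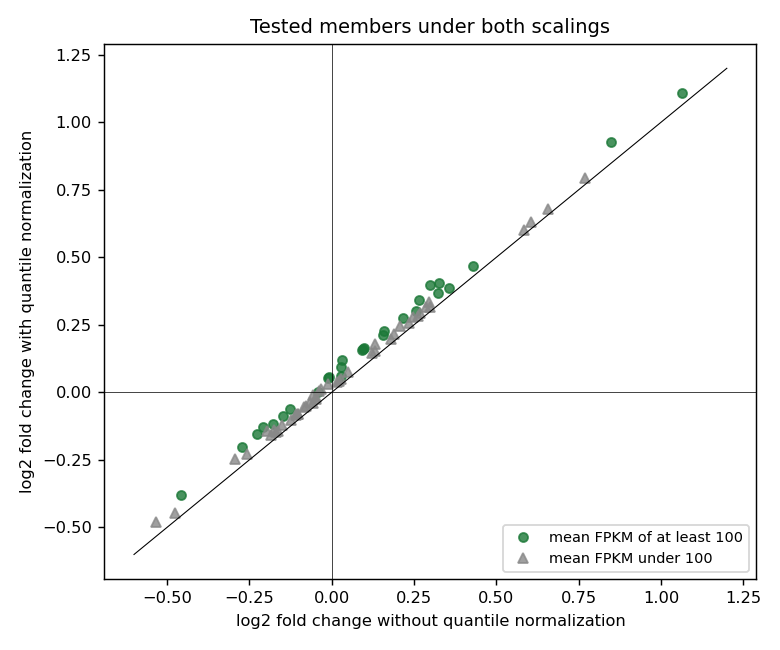
Log2 fold change of the tested members without (horizontal axis) and with (vertical axis) the authors' quantile normalization, with a line of equality; the 2 members below -1, at -2.80 and -2.63 with normalization, lie outside the drawn range and are left out. Members with a mean of at least 100 FPKM (circles) lie further above the line than the rest (triangles), with a median difference of 0.065.

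A list of other transcripts, matched by words for steps of either pathway, was counted in the same way. The words also took in transcripts described as C4-dicarboxylate transporter or malic acid transport protein, which the descriptions place in neither pathway. The list held 61 transcripts of 43 genes, among them triose phosphate isomerase, CP12, carbonic anhydrase, catalase, the glyoxylate aminotransferases and the enzymes that take up photorespiratory ammonium, and 0 of its 49 tested transcripts were called, beside 0.555% of all transcripts. At an unadjusted p under 0.05 in limma, 8 were higher (16.3%, beside 4.09%) and 2 lower (4.08%, beside 5.31%), and the median log2 fold change was 0.052. These shares were taken only on the normalized values and per transcript. The members' own counts fell without normalization and per gene, and whether those of this list do was not tested. Ferredoxin-dependent glutamate synthase, which reassimilates photorespiratory ammonium, was represented by Os07t0658400-01 at 127 and 122 FPKM in NT and at 162 and 156 FPKM in OsNAC14OX (log2 fold change 0.40, SE 0.085, adjusted p = 0.307 in limma). The transcript with the smallest p was Os02t0115700-03, a short transcript of catalase, which removes the peroxide made by glycolate oxidase. It was at 273 and 161 FPKM in NT and at 65.5 and 70.1 FPKM in OsNAC14OX, with a log2 fold change of -1.54 (SE 0.28, adjusted p = 0.235 in limma). The main catalase transcript of that gene, Os02t0115700-01, ran the other way, at 637 and 627 FPKM in NT and at 673 and 771 FPKM in OsNAC14OX.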

How the data were processed

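RNA-sequencing of rice leaves from 2 NT and 2 OsNAC14OX samples was analysed. Per the study's methods, the authors trimmed single-end reads with Trimmomatic, discarded reads under Q20 and aligned them by TopHat against the IRGSP-1.0 genome, annotated by RAP-DB. Which program made the FPKM was not stated in the sources. The authors deposited FPKM and, made from them, quantile-normalized log2(FPKM + 1) values. The labels describe a strand-specific library and the paper names a TruSeq RNA kit. The table also holds fold changes, test statistics and p-values of the authors' own comparison, which were not used, and 4 columns of libraries outside the series, also not used. Another 4 files hold selected transcripts and pathway annotations and were not used. Library depth is unknown, so no counting interval is given.

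The normalized log2 values of the 30251 transcripts that reached 1 FPKM in 2 or more libraries were compared with limma 3.58.1 in R 4.3.3 (lmFit, eBayes with trend, two-sided), with Benjamini-Hochberg adjustment over all of them. The script was tested on simulated data. Starts, counted from 0 in the file, were raised by 1. Members, lists and roles were chosen with earlier results of these data known. Transcripts were named by a rule: in each role the leading transcript of up to 3 genes with the highest mean FPKM, the largest log2 fold change in each direction, every member with an unadjusted p under 0.05, and 2 transcripts of the pathway list; others were added after their values were seen, as were the split at 100 FPKM and the sums with overlapping genes. Alternatives were other filters, no normalization, other pseudocounts, gene sums, no trend, a replicate block and leaving out each library. Fits with other pseudocounts and with gene sums used FPKM without quantile normalization. Figures were drawn with matplotlib 3.10.9.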

Additional observations from a re-analysis of the deposited data

How the results depend on the processing

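No member was called under any alternative that kept the adjusted p, and 1 was (Os12t0277500-04) when the unadjusted p was used with the same fold, where 469 transcripts passed in all. Over all transcripts, 109 were called with no filter on FPKM, 0 with a replicate block and between 0 and 772 when a library was left out, beside 168. The count of members with an unadjusted p under 0.05 in limma was 16, and 10 with a pseudocount of 0.1, 5 per gene, 16 with a replicate block, and between 6 and 19 when a library was left out. The share of all transcripts at that p also moved, from 9.40% to between 4.30% and 20.6% when a library was left out, and without OsNAC14OX replicate 2 it was 21.1% of members beside 20.6% of all. It was 13.2% of members beside 9.69% of all with a pseudocount of 0.1 and 8.77% beside 10.3% per gene. The replicate numbers do not pair the samples (correlation of deviations 0.0037), and with the replicate block the log2 fold change of OsNAC14 stayed at 1.99 with an adjusted p of 0.110 in limma. Leaving out a library moved it between 1.93 and 2.05, and the pathway list had between 0 and 1 calls. A fit without 1 library leaves 1 sample in a group, which is assumed to vary like the other group. The unknown depth limits what can be said of weakly expressed members.

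Of 490 values for 41 named transcripts, 468 kept their direction. The log2 fold change of Os08t0126300-01 was -0.042 without normalization and with both pseudocounts and -0.33 per gene, and that of Os11t0455800-01 was -0.0065, -0.0066 and -0.14 under the same settings. Per gene it was -0.071 for Os04t0486600-01, 0.055 for Os06t0133800-02 and 0.082 for Os07t0152900-01. Leaving out each library in turn took values across 0, from -0.0097 to 2.22 for Os02t0169300-01, from -0.39 to 0.10 for Os02t0170100-02, from -0.011 to 0.091 for Os03t0102400-01, from -0.056 to 0.036 for Os04t0443900-01, from -0.016 to 0.13 for Os04t0486600-01, from -0.069 to 0.31 for Os04t0623800-01, from -0.057 to 0.063 for Os08t0126300-01, from -0.011 to 0.13 for Os11t0455800-01 and from -0.43 to 0.023 for Os11t0455800-02. The causes were not tested.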
